A study of Saccharomyces cerevisiae with 12 samples.

Results

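The cytosolic 40S ribosomal protein genes of *Saccharomyces cerevisiae* were taken by their names, from *RPS0A* to *RPS31*, which gave 56 genes among the 7127 identifiers of the deposited tables. They encode 32 proteins: 24 are each encoded by a pair of paralogs, named A and B, and 8 by a single gene. All 56 were above 0 in every library and passed a filter at a mean of 10 counts, which 6082 identifiers passed. Transcripts of the homozygous diploid laboratory strain BY4743 were sequenced to set transcription beside the rate of loss of heterozygosity on the chromosome arms. There were 6 environments with 2 independently started replicate cultures each, 12 libraries in all. Cells grew in synthetic complete medium (SC) at 30°C, the standard condition, in SC at 37°C, in SC at 30°C with 40 g/l NaCl, in rich medium with glucose (YPD) at 24°C or at 32°C, and in YPG at 30°C, rich medium in which 3% glycerol stood in for glucose.

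All 12 libraries share the BY4743 genotype, which lacks *URA3* and *LEU2*, and both genes were listed at 0 in every library. The medium label of the YPG libraries reads YPD while their titles read YPG. *PCK1*, the gluconeogenic enzyme gene that glucose represses, averaged 50380 counts in YPG and 163.8 in YPD at 32°C. The labels describe all cultures as being in an advanced phase of growth, and how far each culture was from the end of growth cannot be told apart from its environment. *PCK1* averaged 74456 counts in SC with NaCl against 152.3 in SC at 30°C, and its relation to the values below was not tested. The totals of the libraries ran from 13872996 to 14144527 normalized counts. In SC at 30°C, replicate 1 was above replicate 2 for 49 of the 56 genes, with a median gap of 0.20 on the log2 scale, and in SC at 37°C for 43, with a median gap of 0.17. Replicate 1 was the higher for 40 genes in YPD at 24°C, 15 with NaCl, 9 in YPG and 7 in YPD at 32°C. The median gaps there, replicate 1 minus replicate 2, were 0.03, −0.12, −0.11 and −0.10.

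The 40S subunit binds mRNA, scans it for the start codon and holds the decoding site. It joins an rRNA with its proteins, most of which have to be incorporated for a subunit to mature, so their genes are commonly transcribed in concert. In yeast, transcription of these genes follows the TOR and protein kinase A pathways through the activators Rap1, Fhl1, Ifh1 and Sfp1, and it is known to drop under stress and to rise with growth rate. Most paralog pairs go back to a whole-genome duplication, and the products of a pair are often nearly the same protein.

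Coding lengths of the 56 genes ran from 171 to 786 bases, 36 genes carried an intron and 20 did not, and the genes were spread over 14 chromosomes of the R64 assembly. In 9 pairs A and B encoded the same protein and in another 7 they differed by 1 residue. The coding sequences of A and B were identical at 84.3 to 99.2% of their bases, with a median of 92.75%. In 20 pairs no stretch of 150 bases, about a sequencing read, was the same in A and B. *RPS6A* and *RPS6B* shared 40% of such stretches, and how the counting split reads between those copies is uncertain.

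The pairs whose ratio moved most with the environment were told apart in the reads by bases such as the following. The lines give coding bases 181 to 300 of both copies, each within a single exon, with the bases that differ between A and B in capitals. *RPS22A* (YJL190C) is at chrX:75003-75122 on the minus strand and *RPS22B* (YLR367W) at chrXII:857105-857224 on the plus strand, and 7 of the 120 bases differ. *RPS26A* (YGL189C) is at chrVII:148289-148408 on the minus strand and *RPS26B* (YER131W) at chrV:424132-424251 on the plus strand, with 8 bases different. *RPS9A* (YPL081W) is at chrXVI:405631-405750 and *RPS9B* (YBR189W) at chrII:605101-605220, both on the plus strand, with 13 bases different. The sequences are those of the RefSeq R64 reference.
RPS22A: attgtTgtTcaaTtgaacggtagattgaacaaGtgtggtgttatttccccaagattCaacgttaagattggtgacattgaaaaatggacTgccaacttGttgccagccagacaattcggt
RPS22B: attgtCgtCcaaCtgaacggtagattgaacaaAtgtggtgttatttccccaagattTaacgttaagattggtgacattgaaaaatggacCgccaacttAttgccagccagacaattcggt
RPS26A: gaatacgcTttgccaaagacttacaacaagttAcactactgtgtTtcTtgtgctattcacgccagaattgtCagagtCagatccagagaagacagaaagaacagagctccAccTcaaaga
RPS26B: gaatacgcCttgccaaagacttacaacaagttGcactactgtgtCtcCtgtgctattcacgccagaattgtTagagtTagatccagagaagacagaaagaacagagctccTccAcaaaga
RPS9A: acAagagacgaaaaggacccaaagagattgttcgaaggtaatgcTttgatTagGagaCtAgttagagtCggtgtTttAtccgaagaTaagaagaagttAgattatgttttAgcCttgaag
RPS9B: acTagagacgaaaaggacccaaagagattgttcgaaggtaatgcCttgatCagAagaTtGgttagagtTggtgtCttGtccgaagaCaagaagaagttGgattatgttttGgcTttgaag

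Activation of many ribosomal protein genes goes through Rap1, so the 500 bases before each start codon were searched on both strands for its core letters, ACCCATA. They were found in 14 of the 56 genes, or 25.0%, in 23.5% of 60S ribosomal protein genes, in 3.2% of the 63 listed genes for 40S assembly factors and in 5.5% of all 6000 genes searched. The windows below hold them in capitals for 6 genes, chosen as examples: both copies of Rps16, the single-copy *RPS2* and *RPS13*, *RPS22A*, which fell most in salt, and *RPS23B*, a copy that fell less. In *RPS22A* the letters read as the reverse complement, TATGGGT. The windows are at chrVII:277205-277259 for *RPS2*, chrIV:579184-579238 for *RPS13*, chrXIII:551597-551651 for *RPS16A*, chrIV:308121-308175 on the minus strand for *RPS16B*, chrX:75404-75458 on the minus strand for *RPS22A* and chrXVI:794633-794687 for *RPS23B*. The letters stood 125 bases from the start codon in *RPS22A* and 381 in *RPS2*.
RPS2: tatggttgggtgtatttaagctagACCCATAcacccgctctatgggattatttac
RPS13: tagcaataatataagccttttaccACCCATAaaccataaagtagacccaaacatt
RPS16A: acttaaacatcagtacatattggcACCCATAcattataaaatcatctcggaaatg
RPS16B: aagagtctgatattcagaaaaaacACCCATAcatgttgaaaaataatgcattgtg
RPS22A: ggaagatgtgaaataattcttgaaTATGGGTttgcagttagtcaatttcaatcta
RPS23B: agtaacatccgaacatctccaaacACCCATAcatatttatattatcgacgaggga

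Other letters did not set the 40S genes apart from all genes to the same degree. GATGAG (PAC), the letters that the repressors Dot6 and Tod6 bind, occurred before 21.4% of the 40S genes, 28.2% of all genes and 87.3% of the assembly factor genes. AAAATTT, bound by Stb3, occurred before 42.9%, 34.1% and 90.5% of the same groups. CGTNNNNNNGA, bound by Abf1, occurred before 39.3% of the 40S genes and 37.8% of all genes. GACGCA, resembling the Fhl1 site, was found before 10.7% and 10.9%, and AGGGG, the stress response element, before 23.2% and 34.1%. A match is only the presence of these letters in the window. Only the exact letters were searched, so a gene without them may still hold a site for the same factor.

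The share of all counts that fell on the 56 genes differed widely between the environments. In SC at 30°C the 40S genes took 4.29% and 3.78% of the counts, a mean of 4.04 ± 0.36% (SD, n = 2). In SC with NaCl they took 0.685% and 0.745%, which is 5.64-fold below the mean in SC at 30°C. At 37°C the shares were 5.22% and 4.81%, in YPG 4.72% and 5.03%, in YPD at 32°C 6.04% and 6.41%, and for the cooler YPD cultures 6.80% and 6.68%. The salt libraries were thus below, and the YPD libraries above, all others, and SC at 37°C and YPG overlapped. These values are shares, so fewer transcripts of the 40S genes in a cell and more transcripts of other genes cannot be told apart.

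**Figure D1:**
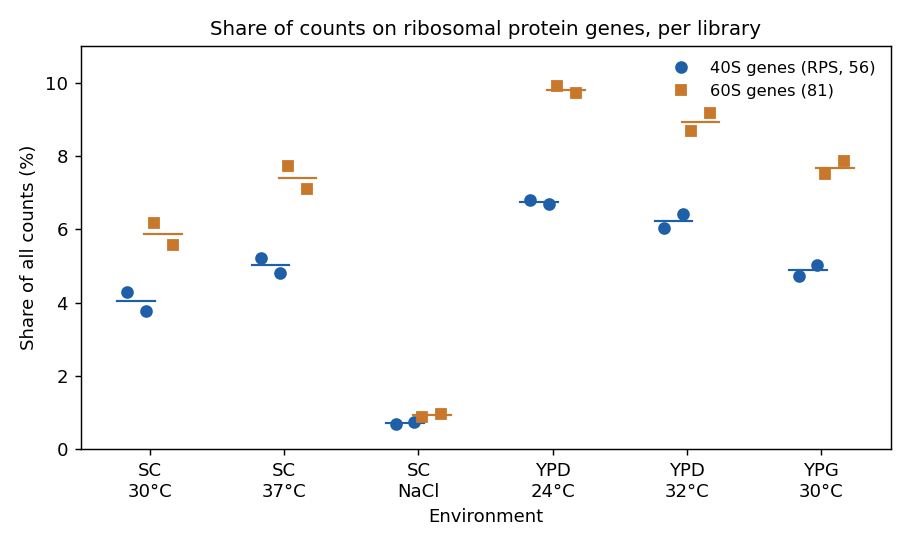
Percent of all counts that fell on the 56 genes of the 40S subunit (circles) and on the 81 genes of the 60S subunit (squares), with the environment on the horizontal axis; each point is a library and each short line the mean of 2. The 40S share was lowest in the NaCl libraries, at 0.685% and 0.745%, and highest in YPD at 24°C, at 6.80% and 6.68%, and the 60S share has the same order at its ends.

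Transcripts of the 60S subunit kept close step. The 60S genes averaged 5.87% of counts in SC at 30°C, 7.41% at 37°C, 0.923% with NaCl, 9.81% in YPD at 24°C, 8.92% in YPD at 32°C and 7.68% in YPG. The ratio of the 40S share to the 60S share was 0.68 to 0.70 in the 8 libraries of YPD and of SC without salt. It was 0.78 and 0.77 with NaCl and 0.63 and 0.64 in YPG, so these libraries lay outside that range in opposite directions. The ratio was given no test.

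Levels of single genes were compared as FPKM, which are per length. *RPS31*, which encodes ubiquitin fused to a 40S protein, had the highest mean over the 12 libraries at 5312 FPKM. Its ubiquitin part resembles other ubiquitin genes, so the split of those reads is uncertain. *RPS26A*, whose product lines the channel by which mRNA leaves the subunit, followed with 3987 FPKM. The lowest were *RPS28B* with 84.8, *RPS29B* with 37.2 and *RPS29A* with 22.2 FPKM. *RPS29A* and *RPS29B* encode a zinc-binding protein, and *RPS29A* ranged from 5.6 to 101.5 counts.

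Low levels were found mainly among the shortest genes. The 10 genes with a coding length under 300 bases, which encode Rps21, Rps27, Rps28, Rps29 and Rps30, had a median of 346.8 FPKM in SC at 30°C. The median of the other 46 was 1550.6 FPKM. The part of length in this difference was not tested. Values of these 10 genes are given below apart from the others where they differ.

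The question for the salt comparison was how far each gene followed the drop of the group. With NaCl, 55 of the 56 genes were lower than in SC at 30°C and none was higher, by limma over all genes with Benjamini-Hochberg adjusted p below 0.05. Of all 6082 genes tested 80.9% passed, 47.2% lower and 33.8% higher. The median log2 change of the 40S genes was −2.58 against −0.22 for all genes. The fall was at least 2 on the log2 scale for 40 genes and at least 3 for 18.

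*RPS22A*, which encodes an early-binding protein of the subunit body, fell most, from 11756 and 10905 counts in SC at 30°C to 304 and 294 with NaCl. Its log2 change was −5.24 ± 0.08 (SE; adjusted p = 8.8e-16, limma). *RPS26B* fell from 8061 and 7832 counts to 282 and 386, a log2 change of −4.58 ± 0.13 (adjusted p = 2.1e-13). For both genes the highest salt library was far below the lowest library of SC at 30°C. *RPS21B*, which encodes a small protein that bacterial ribosomes lack, changed by −3.99, *RPS18B* by −3.73 and *RPS9B* by −3.54.

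*RPS14B* alone did not pass in salt, with 1033 and 897 counts in SC at 30°C and 868 and 899 with NaCl. Its log2 change was −0.12 ± 0.11 (adjusted p = 0.30), and the lower SC library lay between the salt libraries. It passed as lower when libraries were scaled to the counts outside ribosomal protein genes (log2 change −0.26). The Rps14 protein is known in yeast to bind the *RPS14B* pre-mRNA and to hold back its expression. *RPS25A*, whose product helps ribosomes start on internal entry sites, was lowered least among the called genes, from 5553 and 4273 counts to 3655 and 3931, a log2 change of −0.36 ± 0.14 (adjusted p = 0.027). That call was lost under median-of-ratios scaling and without replicate 1 of SC at 30°C, where the log2 change was −0.17 in both cases, without replicate 1 of the salt libraries (−0.31), and without the filter or the variance trend, where it stayed at −0.36. *RPS25B* changed by −0.71 and *RPS7B* by −0.96.

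**Figure D2:**
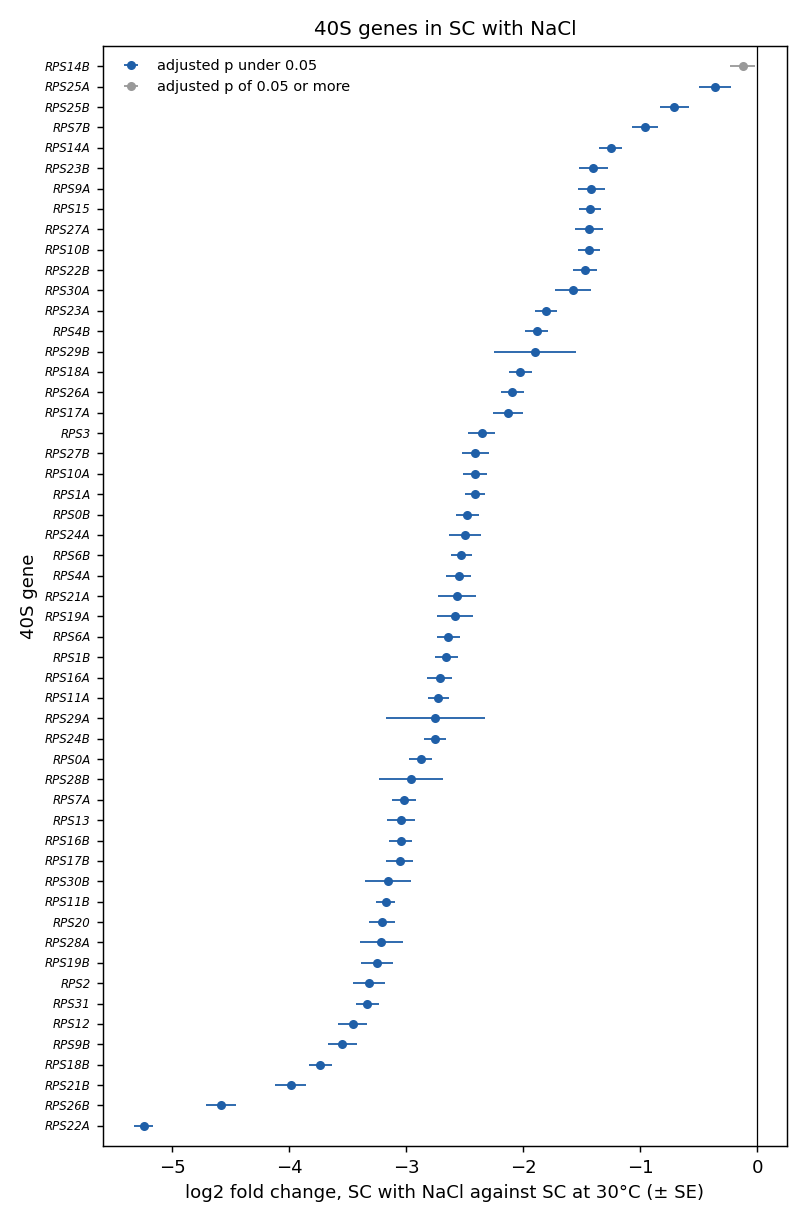
Log2 fold change of 40S genes (vertical axis, ordered by size) in SC with NaCl against SC at 30°C (horizontal axis), with bars for the standard error from limma, blue where the adjusted p was below 0.05 and grey where not. Values run from −5.24 for *RPS22A* to −0.12 for *RPS14B*, the gene in grey.

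The gene that fell most and the gene that did not pass are neighbours. *RPS14B* is at chrX:73787-74611 on the plus strand and *RPS22A* at chrX:74910-75302 on the minus strand, so that their 3′ ends face each other across 298 bases. The 8 single-copy genes all fell, and their median log2 change was −3.13. *RPS12* changed by −3.46, *RPS31* by −3.33, *RPS2* by −3.32, *RPS20* by −3.21, *RPS13* by −3.05, *RPS3* by −2.35 and *RPS15* by −1.43. Rps2 and Rps3 line the channel by which mRNA enters, and Rps15 is needed for precursors to leave the nucleus. *RPS15* had 11839 and 10043 counts in SC at 30°C and 4001 and 4099 with NaCl.

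Among the paired genes, the copies moved by closer amounts in salt for some proteins than for others. *RPS0A* and *RPS0B*, which encode a protein related to the laminin receptor precursor of animals, changed by −2.88 and −2.48. *RPS1A* and *RPS1B* changed by −2.41 and −2.66, *RPS6A* and *RPS6B*, whose product is phosphorylated through TOR, by −2.64 and −2.53, and *RPS16A* and *RPS16B* by −2.71 and −3.05. *RPS7A* and *RPS7B* changed by −3.02 and −0.96, and *RPS26A* and *RPS26B* by −2.09 and −4.58. All of these genes passed the test. By limma over paralog pairs, the A to B ratio also changed in salt for Rps0, Rps1, Rps16, Rps7 and Rps26, and not for Rps6.

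Genes with an intron had a median log2 change of −2.54 in salt and genes without one −2.76. The 14 genes with the Rap1 letters had a median of −2.89 and the other 42 a median of −2.49. Both splits were read without a test, and their ranges overlapped.

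**Figure D3:**
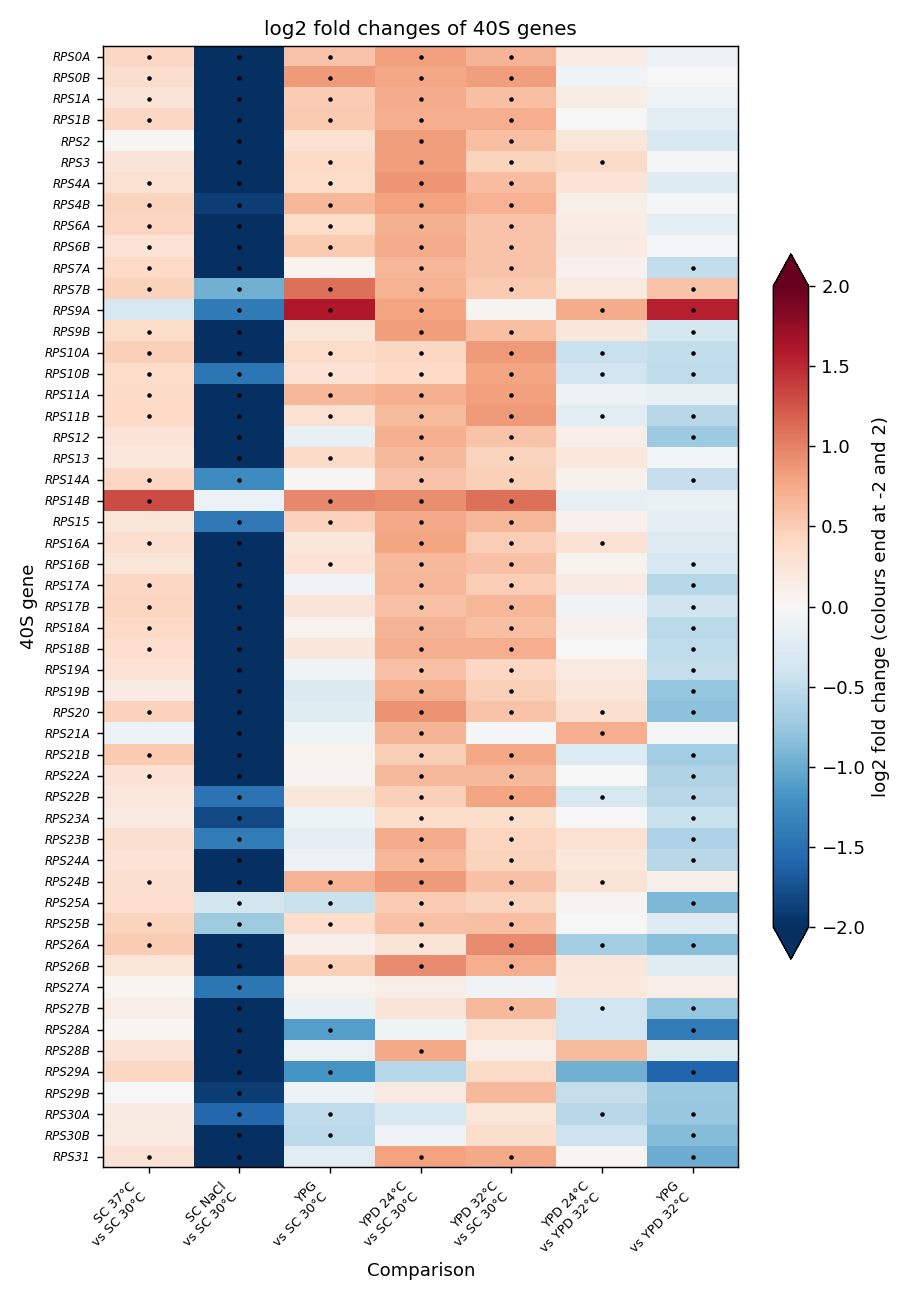
Log2 fold change of 40S genes (rows) in each of the 7 comparisons (columns), red for higher and blue for lower in the first environment named, with a dot where the adjusted p was below 0.05; colours end at −2 and 2, so that larger falls look alike. The NaCl column is blue for nearly all genes, with *RPS14B* as the row without a dot, and the YPD columns against SC are mostly red.

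In YPD, most 40S genes were higher than in SC at 30°C. At 24°C, 49 of 56 passed as higher and none as lower, while 56% of all genes passed, 10.4% higher and 45.6% lower. The median log2 change was 0.70 for the 40S genes and −0.29 for all genes. At 32°C, 47 passed as higher and none as lower, against 38.2% of all genes, 16.7% higher and 21.5% lower. The medians were 0.59 and −0.01. Scaling by the median of ratios brought the median of all genes near 0 in both comparisons and that of the 40S genes to 0.99 at 24°C and 0.61 at 32°C.

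At 24°C, *RPS26B* rose from 8061 and 7832 counts to 15803 and 14955 (log2 change 0.95 ± 0.13, adjusted p = 2.3e-05, limma). At 32°C, *RPS14B* rose most, from 1033 and 897 counts to 1901 and 2229 (log2 change 1.10 ± 0.11, adjusted p = 1.5e-06). There *RPS26A* came next, from 17313 and 19473 counts to 35642 and 35114 (log2 change 0.95 ± 0.10, adjusted p = 2.9e-06). The libraries of SC and YPD did not overlap for any of these genes.

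All 8 single-copy genes were higher in YPD at both temperatures, with median log2 changes of 0.81 and 0.59. Genes of 300 or more coding bases passed as higher in 46 of 46 cases at 24°C and in 45 of 46 at 32°C, where the exception was *RPS9A* (log2 change 0.05, adjusted p = 0.76). Among the 10 shorter genes, 3 passed at 24°C and 2 at 32°C. At 24°C the 2 lowest values were those of *RPS29A*, −0.58 (adjusted p = 0.26), and *RPS30A*, −0.31 (adjusted p = 0.10). At 32°C they were those of *RPS27A*, −0.07 (adjusted p = 0.68), and *RPS21A*, −0.04 (adjusted p = 0.86), and none of the 4 passed.

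The comparison of YPD at 24°C with YPD at 32°C found 8 genes higher and 7 lower, where 49.3% of all genes passed, 6.71% higher and 42.6% lower. The median log2 difference was 0.10 for the 40S genes and −0.26 for all genes. *RPS9A*, which encodes a protein near the decoding site, had 4125 and 4035 counts at 24°C and 2217 and 2689 at 32°C (log2 difference 0.74 ± 0.11, adjusted p = 0.00014, limma). *RPS21A* (0.73), *RPS3* (0.39), *RPS20* (0.32), *RPS16A* (0.30) and *RPS24B* (0.26) were also higher.

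*RPS26A* was the most clearly lower at 24°C, with 22966 and 21143 counts against 35642 and 35114 (log2 difference −0.68 ± 0.10, adjusted p = 8.2e-05). The other genes called lower were *RPS30A* (−0.56), *RPS10A* (−0.44), *RPS10B* (−0.39), *RPS27B* (−0.38), *RPS22B* (−0.32) and *RPS11B* (−0.22). *RPS29A* had a larger difference, −0.96, and did not pass (adjusted p = 0.073). The count of calls depended on scaling: with median-of-ratios it was 35, of which 34 were higher, and *RPS11B* turned to 0.05. With the 4 YPD libraries fitted alone it was 36. Without replicate 1 or 2 of YPD at 24°C it was 9 or 8, and without replicate 1 or 2 of YPD at 32°C 6 or 9. Of the genes called lower, *RPS30A*, *RPS10A*, *RPS10B*, *RPS27B*, *RPS22B* and *RPS11B* did not pass under median-of-ratios scaling.

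At 37°C, 30 of the 56 genes were higher than in SC at 30°C and none was lower, while 23.4% of all genes passed, 11.9% higher and 11.6% lower. The median log2 change was 0.31 against 0.02. *RPS14B* rose most, from 1033 and 897 counts to 2235 and 2551 (log2 change 1.31 ± 0.11, adjusted p = 7.0e-07, limma). *RPS21B* came next, from 5874 and 5017 counts to 8671 and 7048 (log2 change 0.53 ± 0.13, adjusted p = 0.0095). The libraries did not overlap for either gene.

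The lowest values at 37°C were those of *RPS9A*, with 2368 and 2341 counts at 30°C and 1996 and 1771 at 37°C (log2 change −0.32 ± 0.11, adjusted p = 0.055), and *RPS21A*, −0.12 (adjusted p = 0.64). Neither passed. Of the single-copy genes, *RPS20* and *RPS31* were higher, with log2 changes of 0.45 and 0.29. The count of 30 rested on few libraries. Without replicate 2 of SC at 30°C it was 5, and without replicate 1 of SC at 37°C it was 9. The call of *RPS21B* was lost in both cases, with log2 changes of 0.41 and 0.38. These are the environments whose replicates were furthest apart over the 40S genes in 1 direction.

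YPG differs from SC at 30°C in both medium and carbon source, and from YPD at 32°C in carbon source and temperature. Against SC at 30°C, 24 of the 56 genes were higher and 5 lower, where 66.9% of all genes passed, 28.1% higher and 38.7% lower. The median log2 change was 0.23 against −0.11. Against YPD at 32°C, 2 were higher and 31 lower, where 63.4% of all genes passed, 26.9% higher and 36.5% lower, with medians of −0.42 and −0.10. The comparisons share the YPG libraries.

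*RPS9A* rose most in YPG, from 2368 and 2341 counts in SC to 6728 and 7604 (log2 change 1.60 ± 0.11, adjusted p = 1.7e-08, limma). In the 10 other libraries the gene never exceeded 4125 counts. *RPS7B*, one copy of the gene for Rps7, rose from 3363 and 2678 counts to 6281 and 6560 (log2 change 1.10 ± 0.11, adjusted p = 8.4e-07). These were also the 2 genes that passed as higher than in YPD at 32°C, by 1.55 and 0.57 on the log2 scale. Their partners did not pass against SC: *RPS9B* changed by 0.24 (adjusted p = 0.10) and *RPS7A* by 0.08 (adjusted p = 0.51).

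The 5 genes that were lower in YPG than in SC were *RPS29A*, *RPS28A*, *RPS30B*, *RPS30A* and *RPS25A*, and 4 of these belong to the 10 short genes. *RPS28A*, which encodes a small protein near the mRNA exit, fell from 1543 and 1400 counts to 633 and 746 (log2 change −1.09 ± 0.18, adjusted p = 9.7e-05). *RPS29A* went from 66.2 and 68.3 counts to 36.2 and 22.7 (log2 change −1.20 ± 0.42, adjusted p = 0.021). *RPS30B* changed by −0.53, *RPS30A* by −0.51 and *RPS25A* by −0.44. Each of these calls except that of *RPS28A* was lost when 1 of several libraries was left out, replicate 1 or 2 of SC at 30°C or of YPG. Of the single-copy genes, *RPS3*, *RPS13* and *RPS15* were higher, by 0.41, 0.39 and 0.47. Against YPD at 32°C the lowest were *RPS29A* (−1.58), *RPS28A* (−1.40), *RPS31* (−0.98) and *RPS25A* (−0.89).

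Since A and B encode copies of the same 40S protein, identical or not, FPKM of both copies were summed for each of the 32 proteins. For the 27 proteins of 300 or more coding bases, the highest sum in SC at 30°C, that of Rps26 with 5006 FPKM, was 3.33-fold above the lowest. The spread was similar at 37°C (3.78-fold), in YPG (4.26-fold) and in YPD (3.85-fold at 24°C and 4.33-fold at 32°C). With NaCl it was 8.34-fold, from Rps23 with 1268.4 FPKM to Rps22 with 152.1.

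The sums in salt were below those in SC at 30°C by 14.8-fold for Rps22, 11.1-fold for Rps12 and Rps21 and 10.1-fold for Rps31. They were below by 3.0-fold for Rps23, a protein at the decoding site, 2.70-fold for Rps15, 2.19-fold for Rps14 and 1.39-fold for Rps25. In YPG the sums ran from 1.66-fold of SC at 30°C for Rps0 to 0.53-fold for Rps28. These folds compare means of 2 libraries and were given no test.

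**Figure D4:**
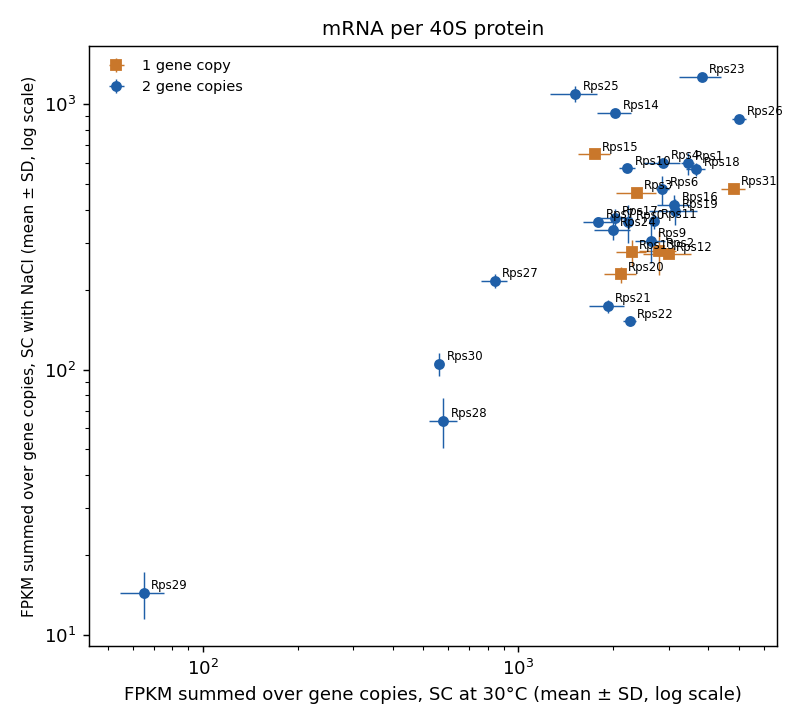
FPKM summed over the gene copies of 40S proteins in SC with NaCl (vertical axis) against SC at 30°C (horizontal axis), both on log scales; points are means of 2 libraries with SD bars, squares for single genes and circles for pairs. Of the 27 proteins of 300 or more coding bases, Rps22 lies lowest in salt, at 152.1 FPKM, and Rps23 highest, at 1268.4 FPKM.

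The log2 ratio of A to B within a library does not depend on how libraries are scaled. It was compared over the 6 environments with an exact permutation test over all 10395 ways to pair the 12 libraries, one-sided toward close replicates. The ratio passed at an unadjusted p below 0.05 in 21 of the 24 pairs, as it did in 94.3% of 714 paralog pairs of the genome. Adjusted over the 714 pairs, 21 passed, against 94.1% of all pairs. By this exact test the pairs that did not were Rps28 (p = 0.053), Rps30 (p = 0.051) and Rps29 (p = 0.42), all of them short genes. The environment means of a pair spanned a median of 1.14 on the log2 scale, against 2.09 over the 714 pairs. A span of 1 or more was found in 16 of 24 pairs and in 83.6% of all pairs.

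Salt gave one end of the span in 21 of the 24 pairs, a count that was not made over the 714 pairs. The median size of the salt change in log2 ratio was 0.89 in the 24 pairs and 1.14 over the 714 pairs. With the salt libraries left out, 5 pairs spanned 1 or more and the median span was 0.427, also without a count over the 714 pairs. These pairs were Rps7, Rps9, Rps21, Rps28 and Rps29, of which Rps28 and Rps29 did not pass the exact test. The same copy was higher in all 12 libraries in 13 pairs, A in 8 and B in 5. The median log2 change in salt was −2.52 for the copies with the higher level in SC at 30°C and −2.55 for those with the lower level.

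**Figure D5:**
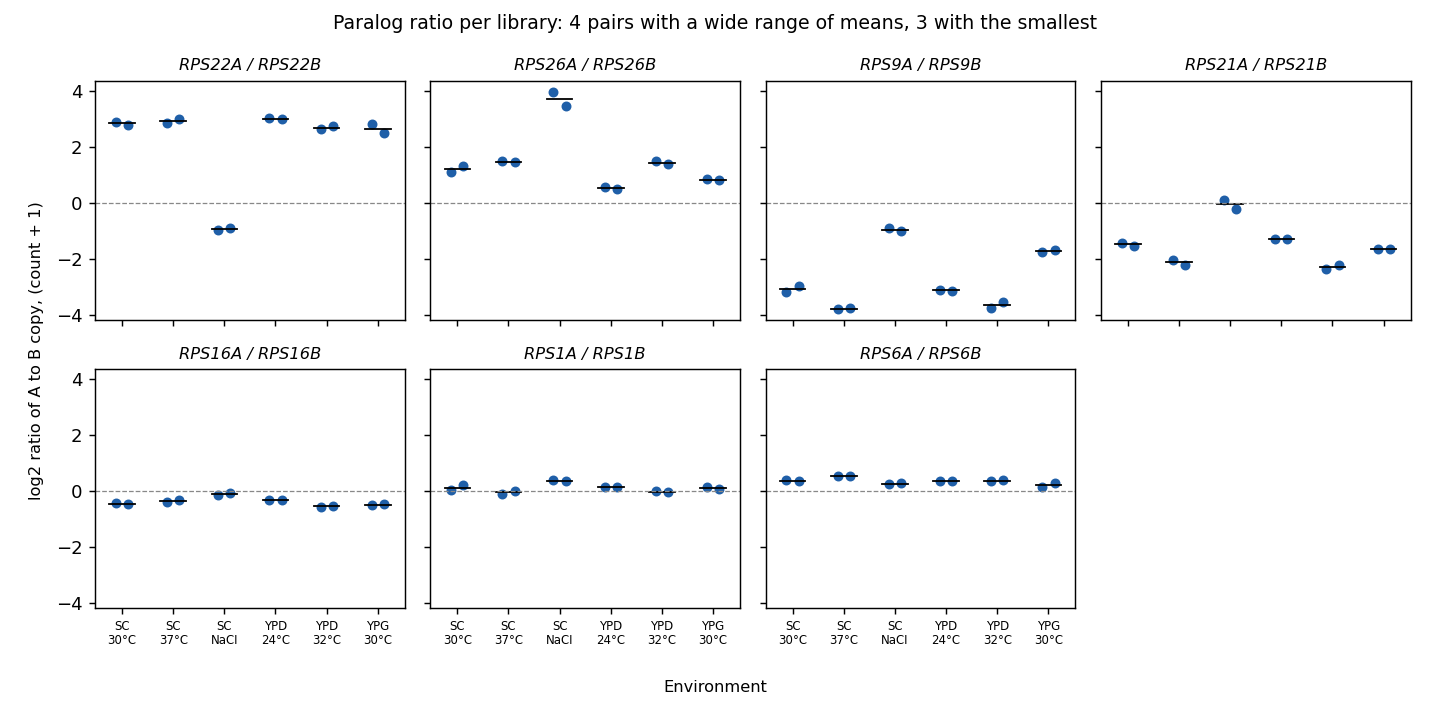
Log2 ratio of the A count to the B count in each of the 12 libraries (points, with lines for the means of 2) by environment, for 4 pairs with a wide and the 3 with the smallest span of environment means; the dashed line marks equal counts. *RPS22A* to *RPS22B* falls below the dashed line in the NaCl libraries alone. The copies of Rps6, Rps1 and Rps16 have the smallest spans, 0.30, 0.40 and 0.44 (exact permutation test, p = 0.0021, 0.012 and 0.00038).

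Rps22 had the largest span, 3.94 on the log2 scale (exact permutation test, p = 0.014, adjusted p = 0.016). *RPS22A* gave 87.6 ± 0.69% (SD, n = 2) of the FPKM of the pair in SC at 30°C and between 86.1% and 88.9% in the other environments except salt, where it gave 34.2 ± 0.68%. *RPS22B*, whose intron holds the small nucleolar RNA gene *SNR44*, had 1582 and 1607 counts in SC at 30°C and 597 and 553 with NaCl. In salt it was thus the higher copy in both libraries, with a log2 change of −1.47 against −5.24 for *RPS22A*. The coding stretches printed above differ at 7 of 120 bases, and no 150-base stretch is shared.

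Rps26 spanned 3.18 (exact permutation test, p = 0.00019, adjusted p = 0.00067). *RPS26A* gave 69.8 ± 2.18% of the FPKM in SC at 30°C, 92.8 ± 1.66% in salt and 58.9 ± 0.47% in YPD at 24°C. *RPS26A* had 17313 and 19473 counts in SC at 30°C and 4386 and 4216 in salt. *RPS26A* was the higher copy in all 12 libraries.

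Rps9 spanned 2.81 (exact permutation test, p = 0.00058, adjusted p = 0.0012), and *RPS9B* was the higher copy throughout. *RPS9A* gave 10.4 ± 1.02% of the FPKM in SC at 30°C, 6.7 ± 0.09% at 37°C, and 10.1 ± 0.15% and 7.4 ± 0.70% in YPD at 24°C and 32°C. It gave 22.9 ± 0.58% in YPG and 33.5 ± 1.16% in salt. The routes to these shares differed, since in YPG the count of *RPS9A* rose, while in salt *RPS9A* changed by −1.42 and *RPS9B* by −3.54.

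Rps21 spanned 2.23 (exact permutation test, p = 0.00019), with *RPS21A* at 26.3% in SC at 30°C, 48.8% in salt and 16.9% in YPD at 32°C. *RPS7A* gave 79.9% of its pair in SC at 30°C, 48.8% in salt and 66.3% in YPG, and *RPS14A* gave 92.2% in SC at 30°C and 84.3% in salt. The smallest spans were those of Rps6 (0.30), Rps1 (0.40) and Rps16 (0.44), and the copies of Rps6 share much of their sequence. In Rps29 the replicates of an environment differed by up to 2.30, more than the span of the means.

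The order of the copies turned over in salt in several pairs besides Rps22. *RPS18A*, whose product lies in the head of the subunit, gave 47.0 ± 3.00% of the FPKM of its pair in SC at 30°C and 74.3 ± 1.77% in salt (exact permutation test, p = 0.034). *RPS10A* gave 60.7 ± 0.53% and 44.1 ± 3.37% (exact p = 0.043), and *RPS27A* gave 37.9 ± 0.47% and 54.5 ± 1.64% (exact p = 0.00019). In Rps27 the other environments differed as well, since *RPS27A* gave 41.3% in YPG and 27.1% in YPD at 32°C. *RPS4A* went from 61.6 ± 0.16% to 50.3 ± 1.3% (exact p = 0.00019), which left the copies level in salt.

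In other pairs the copy that was higher in SC gained further. *RPS17A* gave 58.7 ± 3.40% in SC at 30°C and 72.9 ± 3.31% in salt (exact permutation test, p = 0.014), and *RPS11A* gave 59.3 ± 1.69% and 66.6 ± 0.49% (exact p = 0.0076). For Rps24 and Rps25 YPG was at the low end. *RPS24A* gave 61.0 ± 0.20% in YPG and 73.0 ± 2.88% in SC at 30°C (exact p = 0.013), and *RPS25A* gave 54.8 ± 0.48% and 67.8 ± 1.02% (exact p = 0.0038). *RPS24B* rose in YPG by 0.69 and *RPS25B* by 0.35, and *RPS25A* fell by 0.44.

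Against SC at 30°C, limma over all 714 pairs called a changed ratio in 20 of 24 pairs with NaCl, where 84.3% of all pairs passed. A gained on B in 13 of them and B on A in 7. In YPG, 13 pairs passed (73.2% of all pairs), in YPD at 24°C 4 (53.9%), in YPD at 32°C 4 (49.6%) and at 37°C 3 (38.4%). The 3 pairs at 37°C were Rps9, Rps14 and Rps21, and in each B gained on A. Between YPD at 24°C and at 32°C, 9 pairs passed (48.5%), and between YPG and YPD at 32°C, 13 (72.4%). The 4 of YPD at 24°C against SC became 2 without replicate 2 of SC at 30°C or replicate 1 of YPD at 24°C. The 9 between the YPD temperatures became 4 without replicate 1 of YPD at 24°C and 5 without any of the 3 other YPD libraries.

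Factors that assemble the 40S subunit, most of them in the nucleolus, were compared in the same way. Of 63 listed genes, 61 were lower and 1 higher in salt, where 47.2% of all genes were lower and 33.8% higher, with a median log2 change of −1.52 against −2.58 for the 40S genes. *NOP58*, a protein of box C/D particles, changed by −3.72. In YPG, 62 of 63 were higher than in SC at 30°C, as were 28.1% of all genes, with a median of 1.11, where the 40S genes had a median of 0.23. *ENP2* and *DHR2*, both needed to process the rRNA precursor, each changed by 1.71. At 37°C 17 of 63 (27%) were lower and none higher, against 11.6% of all genes lower and 11.9% higher. In YPD at 24°C 13 (20.6%) were lower and 5 (7.94%) higher, below the 45.6% and 10.4% of all genes.

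The 60S genes stood closer. In salt, 77 of 78 tested were lower, where 47.2% of all genes were lower and 33.8% higher. The median of the 60S genes was −2.72, with a range from −5.02 for *RPL9A* to −0.16 for *RPL15B*. At 37°C 49 (62.8%) were higher and 1 lower, against 11.9% and 11.6% of all genes. In YPG 45 (57.7%) were higher and 3 lower, against 28.1% and 38.7%. In YPD at 24°C 70 (89.7%) were higher and none lower, against 10.4% and 45.6%. In YPD at 32°C 65 (83.3%) were higher and 1 lower, against 16.7% and 21.5%. *ASC1*, whose protein sits on the head of the 40S subunit, changed by −3.43 in salt, by 1.05 in YPG, by 1.09 for YPD at the lower temperature and by 0.61 for YPD at 32°C, and passed in each.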

How the data were processed

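The authors aligned RNA-seq reads to the R64 assembly with HISAT2, sorted them with SAMtools 1.9 and made the tables with cuffquant and cuffnorm. The labels call the libraries non-paired while the study's methods describe paired reads. The deposited count table holds cuffnorm's normalized signal, a scaled and not whole count for each gene. Of its low values, from 0.5 to 20, between 74.2% and 82% per library were whole multiples of a common step within 0.01, so no count model was used. The deposited FPKM are per length, and were used for levels. The common step implied between 12400000 and 15500000 reads or read pairs counted on genes per library. The paper reports a larger number of read pairs obtained per sample. Counts were lowest for *RPS28B*, *RPS29A* and *RPS29B*.

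Values were analysed as log2(count + 1) with limma 3.58.1 (trend) in R 4.3.3, over the 6082 genes that averaged 10 or more counts, all 12 libraries in 1 fit, with Benjamini-Hochberg adjustment per comparison and a threshold of 0.05. Fold changes are on that scale, which understates the change of low genes. Paralog pairs were reciprocal best BLAST 2.17.0 matches of translated reference coding sequences (e-value 1e-20, at least 50% of the longer protein), 714 pairs with both genes past the filter, 24 of them the 40S pairs, which were paired by name. The exact permutation test of each ratio was the main test, and limma over all pairs and adjustment over all pairs were chosen after seeing the data. The scripts were tested on simulated data. The RPS genes, the other lists and the tests were chosen with earlier results of these data known. Named with values are the single-copy genes, the 2 largest rises and falls per comparison, members against the common direction, the 5 widest and 3 narrowest pairs and the 3 highest and lowest levels. Some items that this rule names are not reported here. Alternatives were scaling by the median of ratios or to counts outside ribosomal protein genes, FPKM in place of counts, pseudocounts of 0.5 and 5, no filter, no trend, only the libraries compared, a replicate block and each library left out.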

Additional observations from a re-analysis of the deposited data

How the results depend on the processing

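With 2 replicates per environment, each comparison rests on 4 libraries, and where replicates differ, neither can be preferred. Where a replicate is left out, the remaining library is assumed to vary like the other environments. *RPS28B*, *RPS29A* and *RPS29B* had the fewest counts and the largest standard errors of the 56 genes. Of 37 results for a named gene in a comparison, 20 kept their direction and their side of the threshold under every alternative run and 17 did not. Of 514 alternative values, 460 kept both, 42 were no longer past the threshold, 11 passed it newly and 1 turned direction: *RPS11B* in YPD at 24°C against 32°C, 0.05 under median-of-ratios scaling. The cause was not tested. That scaling accounted for 10 of the changes.

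The count of genes called at 37°C, 30, was 19 without a variance trend and ran from 5 to 33 with a library left out. The count for YPD at 24°C against 32°C, 15, was 35 with median-of-ratios scaling, 36 with only the 4 libraries compared, 10 without a variance trend, and 6 to 22 with a library left out. It was 22 without both NaCl libraries, an alternative chosen after seeing the data. The pairs called for YPD at 24°C against SC, 4, were 2 to 5 with a library left out, and those for YPD at 24°C against 32°C, 9, were 4 to 8. The other counts stayed within 1.5 times under all alternatives run: with NaCl 54 to 56, in YPG 22 to 36 against SC and 28 to 42 against YPD at 32°C, and 20 to 23 for the exact test of pairs. The 40S share depends on the denominator. As a share of FPKM it was 8.184% in SC at 30°C, 10% at 37°C, 1.533% with NaCl, 9.982% in YPG and, for the cooler and the warmer YPD cultures, 13.07% and 12.22%. With the 50 most abundant genes left out it was, in the same order, 4.877%, 6.089%, 0.8433%, 5.487%, 8.502% and 7.194%. Over nuclear protein-coding genes it was 6.855% in YPD at 24°C.

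With a replicate block the counts were 26 at 37°C, 55 with NaCl, 30 for YPG, 49 and 46 for YPD at 24°C and 32°C, 16 between the YPD temperatures and 33 for YPG against YPD at 32°C. With 2 replicates the numbers pair no samples by the data. Deviations of same-numbered libraries correlated across genes at 0.213 for SC at 37°C and 30°C and between −0.094 and 0.035 in the other comparisons. The exact test was not run with a block, with only 4 libraries or without a trend, since it fits no model.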

Other observations

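Genes that act with the 40S subunit at initiation were measured in the same libraries. Of 21 initiation factor genes, 20 were lower and 1 higher in salt than in SC at 30°C, where 33.8% of all genes were higher and 47.2% lower. In YPG 17 were higher and 3 lower, against 28.1% and 38.7% of all genes. *TIF1*, a gene for the helicase eIF4A, changed by −3.40 in salt, and *DED1*, another initiation helicase gene, by 1.00, the single rise of the list (limma, adjusted p = 9.6e-14 and 4.6e-08). *STM1*, whose protein occupies the mRNA channel of idle ribosomes, changed by −2.46 in salt, by 0.23 in YPG and by 0.92 and 0.71 in YPD at 24°C and 32°C, and passed in each.

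For the small subunit of the mitochondrial ribosome, 16 of 33 genes (48.5%) were lower and 7 (21.2%) higher in salt, the lower share being near that of all genes (47.2%). In YPD, all 33 were lower than in SC at 30°C at 24°C and 27 (81.8%) at 32°C, against 45.6% and 21.5% of all genes, and none was higher, while the cytosolic 40S genes that passed were all higher. In YPG 29 (87.9%) were lower and 1 higher than in SC at 30°C, against 38.7% of all genes lower and 28.1% higher. Against YPD at 32°C, 13 (39.4%) were lower and 4 (12.1%) higher in YPG, where 36.5% of all genes were lower and 26.9% higher.

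Among 19 genes for regulators of ribosomal protein transcription, 10 (52.6%) were higher and 5 (26.3%) lower in salt, where 33.8% of all genes were higher and 47.2% lower. *CRF1*, which encodes a corepressor of ribosomal protein genes, changed by 3.41 (adjusted p = 6.9e-12) and *IFH1*, which encodes the coactivator that it competes with, by −1.18 (adjusted p = 8.0e-08). *SFP1* changed by 0.83, *RAP1* by −0.26 and *FHL1* by 0.01, the last of which did not pass. In YPG 9 (47.4%) of the 19 were higher and 6 (31.6%) lower than in SC at 30°C, against 28.1% and 38.7% of all genes. Their log2 changes ran from −3.19 to 1.99. The protein kinase A gene *TPK2* changed by 1.61 in salt and by −2.60 in YPG, and *TOD6*, a repressor gene, by 1.99 in YPG.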
